A study of Homo sapiens with 6 samples.

Results

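TYMS and 8 other enzymes of deoxynucleotide (dNTP) synthesis were followed in HCT116 cells, an established human colorectal carcinoma line, after silencing of PLEK2. The members were TYMS, TK1, RRM1, RRM2, DCK, DUT, DTYMK, DCTPP1 and SHMT1, taken by their gene symbols, and they made up 9 of the 17047 genes in the table. All 9 were among the 12959 genes that passed the filter on low counts. The 6 libraries held poly(A) RNA read as single ends of 50 nt. In 3 libraries the cells carried a non-targeting shRNA (shNC), and in the other 3 they carried an shRNA against PLEK2, both delivered in a pLKO.1 lentiviral vector. Besides the shRNA, neither an agent nor an allele distinguished the groups in the labels. The libraries of each group are numbered 1 to 3, and the oligonucleotide list of the study holds a single PLEK2 target, so the numbers were read as replicates of 1 construct in 1 cell line. Nothing in the sources used here says that the replicates were separate transductions or cultures, so the spread between these libraries may be technical. The p-values of the fits rest on that spread and on variation shared across genes.

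DNA synthesis needs a balanced supply of the dNTPs. Ribonucleotide reductase turns ribonucleoside diphosphates into deoxyribonucleoside diphosphates. Thymidylate synthase (TYMS) methylates dUMP to dTMP with a folate carrier as the carbon donor, and it is the enzyme that 5-fluorouracil inhibits in colorectal cancer. Salvage kinases return thymidine and deoxycytidine to the pool, DTYMK carries dTMP to dTDP, and the pyrophosphatases DUT and DCTPP1 remove dUTP and unwanted dCTP. Several of these genes are transcribed as cells enter S phase.

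The base pairing of the shRNA with the members was examined because each result rests on a single construct. The 21-base target is shown as the sense strand of PLEK2 mRNA, with capitals on the 7 bases that would pair with guide positions 2 to 8 if the guide is the exact complement of the target. It lies in GRCh38 chr14:67397753-67397773, minus strand, wholly within the coding part of exon 2 of PLEK2.
PLEK2 shRNA target: gctggtgtactacAAGCTTGa
The 7 capital letters occurred once in the canonical PLEK2 transcript and 0 times in the canonical transcripts of all 9 members (GENCODE 44). The longest stretch of the target found in a member was 8 bases, in DUT, and it was 7 bases in TYMS. How often such matches occur in other transcripts was not computed, and effects of the shRNA on RNAs besides PLEK2 were not tested. The 120 bases upstream of the TYMS start (RefSeq, GRCh38.p14, chr18:657533-657652, plus strand) are shown because the results turn on TYMS. Capitals mark the E2F-like heptamer TTCCCGC, here on the opposite strand as GCGGGAA, which begins 39 bases before the start.
TYMS upstream: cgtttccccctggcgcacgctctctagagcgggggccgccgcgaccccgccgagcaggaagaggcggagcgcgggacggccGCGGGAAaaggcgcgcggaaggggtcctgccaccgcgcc
Promoters of all 9 members were matched, each covering 250 bases before and 50 after the start. TTCCCGC or TTGGCGC, on either strand, occurred in 3 of the 9, namely TYMS, RRM1 and DCK. They also occurred in 9.2% of 35116 promoters and in 15.0% of the 10191 promoters of genes tested. CCAAT, on either strand, occurred in 4 of the 9 (RRM1, RRM2, DTYMK and SHMT1) against 36.6% of the promoters of genes tested. These are letter matches, and no binding was measured.

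Library totals ran from 14377532 to 15602732 estimated counts, and levels are given as CPM, counts divided by the TMM-scaled library size. PLEK2 itself, at 86.0, 72.6 and 82.9 CPM in shNC replicates 1 to 3, was at 16.0, 32.2 and 34.95 CPM with its shRNA. The groups did not overlap, and the lowest level was in PLEK2 shRNA replicate 1. Of 10 intestinal epithelial markers, 7 were above 1 FPKM (a count scaled to transcript length and library total) in every library, led by the keratins KRT8 and KRT18. VIL1 and CDH17, also among these 10 markers, stayed below 0.1 FPKM. The summed epithelial markers ranged from 5113 to 5881 FPKM in shNC and from 4268 to 5440 FPKM with PLEK2 shRNA, and the part of this difference in the results was not tested. All 5 leukocyte and all 4 endothelial markers found in the table were below 1 FPKM in every library, and of 4 fibroblast markers COL1A1 alone was above it (4.26 to 5.94 FPKM).

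TYMS was lower with PLEK2 shRNA and was the 1 member of 9 called once edgeR's model held a block for the replicate number, whereas the fit without that block called none (0). Its level was 199, 148 and 145 CPM in shNC replicates 1, 2 and 3. With PLEK2 shRNA it was 45.7, 76.3 and 77.4 CPM. Every PLEK2 shRNA library lay below every shNC library, and replicate 1 was the highest of the controls and the lowest of the silenced libraries. The means were 164.1 ± 30.5 (SD, n = 3) and 66.5 ± 18.0 CPM (SD, n = 3), a 2.47-fold difference. Each value rests on 719 to 3057 estimated reads, so that counting error alone was 1.81% to 3.73%. In bulk RNA, fewer cells transcribing a gene and less of its RNA per cell cannot be told apart.

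**Figure D1:**
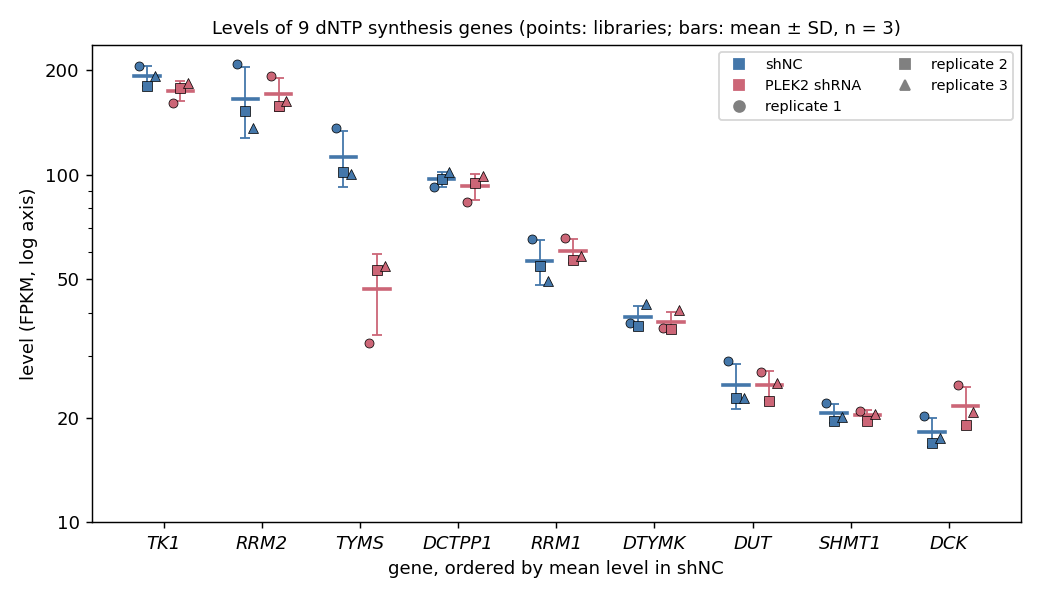
Level of each of the 9 genes in FPKM (log axis), with 1 point per library, shNC in blue and PLEK2 shRNA in red, and bars for the mean and SD of 3 libraries. TYMS is the gene whose points separate, from 100 to 137 FPKM in shNC and from 32.8 to 54.7 FPKM with PLEK2 shRNA.

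The fitted log2 fold change of TYMS was -1.30 (95% interval -1.77 to -0.83). Its Benjamini-Hochberg adjusted p in edgeR's quasi-likelihood test was 0.684, and in this fit 0 of 12959 genes (0%) passed an adjusted p of 0.05. PLEK2, the targeted gene, had a log2 fold change of -1.54 there, also at an edgeR adjusted p of 0.684. With the replicate block PLEK2 was at -1.57, with an edgeR adjusted p of 0.00106. At an unadjusted p under 0.05 without the block, TYMS was the 1 member of 9 to pass, where 3.09% of all genes tested passed. It was also the member at least 1.5-fold lower at that p, a rule met in this direction by 0.278% of genes tested. Over 10161 genes, deviations of same-numbered libraries from their group means correlated at 0.554 to 0.736. TYMS itself did not follow this. On the log2 scale its replicate 1 stood 0.44 above the mean of replicates 2 and 3 in shNC and at -0.75 relative to it with PLEK2 shRNA. With the number as a block the log2 fold change of TYMS was -1.31 (95% interval -1.67 to -0.96) at an edgeR adjusted p of 0.00333. In the fit with the block, 1 of 9 members was called lower at an adjusted p under 0.05, beside 0.725% of genes tested. None of the 9 (0) was called higher, beside 0.123% of genes tested. TYMS ranked 5 among the 12959 genes by the size of its fall in that fit and 9 by p.

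TYMS was lower in each replicate pair. The log2 ratio of PLEK2 shRNA over shNC was -2.12 in pair 1, -0.96 in pair 2 and -0.91 in pair 3, that is, 4.36-, 1.94- and 1.87-fold lower. These ratios spread more widely than the interval of the blocked fit with all pairs (-1.67 to -0.96). That interval and its p also lean on variation shared across genes. Pair 1 was also the pair in which PLEK2 itself was lowest relative to its control, with log2 ratios of -2.42, -1.17 and -1.25 in pairs 1 to 3. Without pair 1, the blocked fit gave TYMS a log2 fold change of -0.92 and a Benjamini-Hochberg adjusted p of 8.21e-13 (edgeR). Without pair 2 these were -1.49 and 0.0157, and without pair 3 they were -1.52 and 1.22e-16 in the same edgeR test. Each of these fits holds 2 pairs, so its p leans on variation shared across genes and says little about the spread between pairs. TYMS was thus called by edgeR with the block whichever pair was left out. DESeq2's Wald test with the block and all pairs missed the threshold, with an adjusted p of 0.0529.

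TYMS shares genomic sequence with ENOSF1, a gene of the opposite strand that encodes a mitochondrial enolase-like enzyme. TYMS (NCBI Gene 7298) lies on GRCh38 chromosome 18 from 657653 to 673578, plus strand. Its canonical transcript of 1613 nt has 7 exons, and 967 nt of it (60.0%) overlap exons of ENOSF1 between 670692 and 673578, of which 383 nt are TYMS coding sequence. The strand setting behind the counts is not given in the sources used here, and without strand, reads from the overlap cannot be told apart. The TYMS counts carried decimals in all 6 libraries, which an estimated count shows where 1 read is shared out over several genes. In 5 of the 6 libraries the decimals of TYMS and ENOSF1 added up to a whole number within 0.011, and no other gene did so as often.

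ENOSF1 itself was at 55.3, 59.0 and 62.5 CPM in shNC replicates 1 to 3 and at 56.4, 55.6 and 60.4 CPM with PLEK2 shRNA. These groups overlapped, and the blocked log2 fold change was -0.03 (95% interval -0.16 to 0.09). When the counts of TYMS and ENOSF1 were summed before the fit, the log2 fold change was -0.85 (95% interval -1.15 to -0.55). With the block the sum gave -0.85, and the edgeR p after Benjamini-Hochberg adjustment was 0.00299. A second antisense neighbour, TYMSOS, overlaps 106 nt of the TYMS transcript and had 11 to 21 counts per library, against 719 to 3057 for TYMS.

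The level of TYMS was then set against the other members within each library, a comparison that does not depend on how libraries are scaled to each other. In shNC, log2 CPM of TYMS stood 1.52, 1.16 and 1.09 above the median of the other 8 members. With PLEK2 shRNA it stood at -0.60, 0.21 and 0.15. The groups did not overlap, with a mean difference of -1.34 and an exact two-sided permutation p of 0.1, the smallest that 3 libraries against 3 can give. Within pairs 1, 2 and 3 the difference was -2.12, -0.95 and -0.94.

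Per transcript length, TK1 was the most abundant member in shNC (192.2 ± 12.8 FPKM, SD, n = 3), followed by RRM2 (165.5 ± 38.0), TYMS (112.7 ± 20.6), DCTPP1 (96.9 ± 4.65), RRM1 (56.5 ± 8.20) and DTYMK (38.8 ± 3.17). DUT (24.9 ± 3.70), SHMT1 (20.6 ± 1.30) and DCK (18.2 ± 1.74) closed the order. The libraries of TK1 and RRM2 overlapped, as did those of RRM2 and TYMS, TYMS and DCTPP1, and SHMT1 and DCK, so these neighbours were not separated beyond their spread. With PLEK2 shRNA, TYMS took rank 5 at 46.9 ± 12.2 FPKM (SD, n = 3), below RRM1 (60.3 ± 4.81) and overlapping DTYMK (37.7 ± 2.68). Its level relative to TK1, the salvage enzyme for the same product, was 0.584 ± 0.075 in shNC and 0.267 ± 0.056 with PLEK2 shRNA (FPKM ratio, SD, n = 3). Relative to DTYMK, the next enzyme after TYMS, it was 2.93 ± 0.66 and 1.24 ± 0.30. For both of these ratios every PLEK2 shRNA library lay below every shNC library.

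TK1, the cytosolic thymidine kinase that salvages thymidine to dTMP, had 301, 262 and 279 CPM in shNC replicates 1 to 3. With PLEK2 shRNA its level was 227, 256 and 261 CPM. The highest silenced library and the lowest control differed by less than 1 CPM, and in FPKM the groups overlapped. TYMS and TK1 were the 2 of 9 members without overlap on the lower side in CPM, a pattern found in 5.12% of genes tested, and no member (0) was without overlap on the higher side, against 4.08%. The blocked log2 fold change of TK1 was -0.18 (95% interval -0.32 to -0.03), with a Benjamini-Hochberg adjusted p (edgeR) of 0.191. The log2 ratio was -0.41 in pair 1, -0.03 in pair 2 and -0.09 in pair 3, and without pair 1 the blocked value was -0.06.

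DTYMK, the thymidylate kinase on which both routes to dTTP converge, was at 40.0, 39.0 and 45.2 CPM in shNC and at 37.3, 37.7 and 42.4 CPM with PLEK2 shRNA. The groups overlapped, and replicate 3 was the highest library in both. Its blocked log2 fold change was -0.08 (95% interval -0.22 to 0.06).

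RRM1 and RRM2 are the large and small subunits of ribonucleotide reductase, and the small subunit holds the radical on which catalysis depends. RRM1 had 207, 172 and 154 CPM in shNC replicates 1 to 3 and 200, 177 and 179 CPM with PLEK2 shRNA. For RRM2 the values were 664, 485 and 427 CPM in shNC and 590, 494 and 506 CPM with PLEK2 shRNA. In both genes the groups overlapped and replicate 1 was the highest library of either group. The blocked log2 fold change was 0.07 for RRM1 (95% interval -0.06 to 0.20) and 0.03 for RRM2 (95% interval -0.12 to 0.18). A fall of the size seen for TYMS lay outside both intervals. Without pair 1 the blocked value was 0.13 for RRM1 (95% interval 0.02 to 0.25) and 0.14 for RRM2 (95% interval 0.03 to 0.25). Without pair 2 these were 0.10 and 0.05, and without pair 3 they were 0.01 and -0.06. Neither gene was called in these fits. The FPKM ratio of RRM2 to RRM1 was 2.91 ± 0.24 in shNC and 2.83 ± 0.079 with PLEK2 shRNA (SD, n = 3), and its ranges overlapped.

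DCK, the deoxycytidine kinase of the salvage route and the activator of cytarabine and gemcitabine, was the member with higher levels in every pair. It had 50.6, 42.3 and 43.3 CPM in shNC replicates 1 to 3. With PLEK2 shRNA it had 60.1, 47.0 and 50.6 CPM. Replicate 1 was the highest library in both groups, and the groups overlapped. The log2 ratios of pairs 1, 2 and 3 were 0.25, 0.15 and 0.22. In the blocked fit the log2 fold change was 0.21 (95% interval 0.08 to 0.34), and edgeR gave an unadjusted p of 0.00497 and an adjusted p of 0.114, so DCK was not called.

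DUT, the dUTPase that keeps uracil out of DNA and supplies dUMP to TYMS, was at 50.1, 38.6 and 38.4 CPM in shNC and at 44.6, 37.3 and 41.8 CPM with PLEK2 shRNA. The groups overlapped, and the blocked log2 fold change was -0.03 (95% interval -0.19 to 0.12). Its mean in FPKM was 24.9 in both groups. DCTPP1, a pyrophosphatase of dCTP and its modified forms, had 91.6, 95.9 and 100 CPM in shNC and 79.7, 92.4 and 96.0 CPM with PLEK2 shRNA. Its groups overlapped, with replicate 1 the lowest library of each, and the blocked log2 fold change was -0.11 (95% interval -0.23 to 0.02).

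SHMT1 is the cytosolic serine hydroxymethyltransferase that charges folate with the carbon used by TYMS. It was at 52.7, 45.4 and 46.6 CPM in shNC replicates 1 to 3 and at 48.0, 45.5 and 46.7 CPM with PLEK2 shRNA. The libraries numbered 2 and 3 were nearly the same in both groups, and the blocked log2 fold change was -0.05 (95% interval -0.18 to 0.09). The decimals of its counts in 5 libraries summed to whole numbers with those of SMCR8, its overlapping neighbour on the opposite strand, in all 5.

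**Figure D2:**
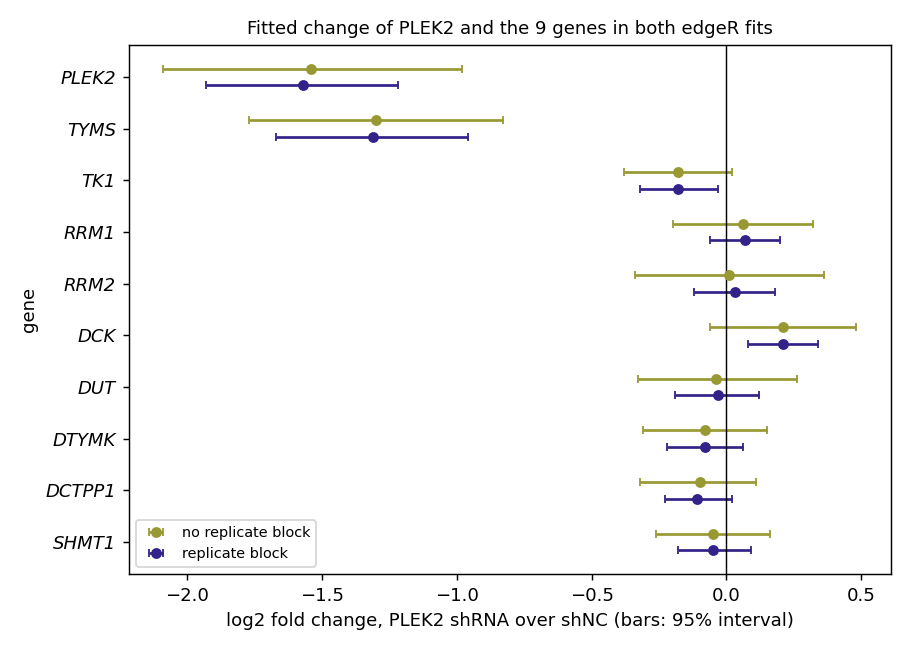
Log2 fold change of PLEK2 and the 9 genes, PLEK2 shRNA over shNC, with 95% intervals from edgeR without (olive) and with (indigo) the replicate block. TYMS, at -1.30 and -1.31, lies beside PLEK2, while the other 8 genes lie between -0.18 and 0.21.

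Among the other 8 members, 0 passed an adjusted p of 0.05 in either edgeR fit. At an unadjusted p under 0.05 with the block, TYMS, TK1 and DCK were the 3 of 9 members that passed, where 18.3% of all genes tested did. Over the 8 members other than TYMS the median blocked log2 fold change was -0.04, and over all 12959 genes it was -0.002. TYMS, TK1, DTYMK and DCTPP1 were lower in all 3 pairs, 4 of 9 against 21.1% of genes tested. DCK was higher in all 3 pairs, 1 of 9 against 19.8% of genes tested. The median of the 8 other members was -0.151 in pair 1, -0.016 in pair 2 and 0.062 in pair 3, so that their direction was not shared among pairs.

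**Figure D3:**
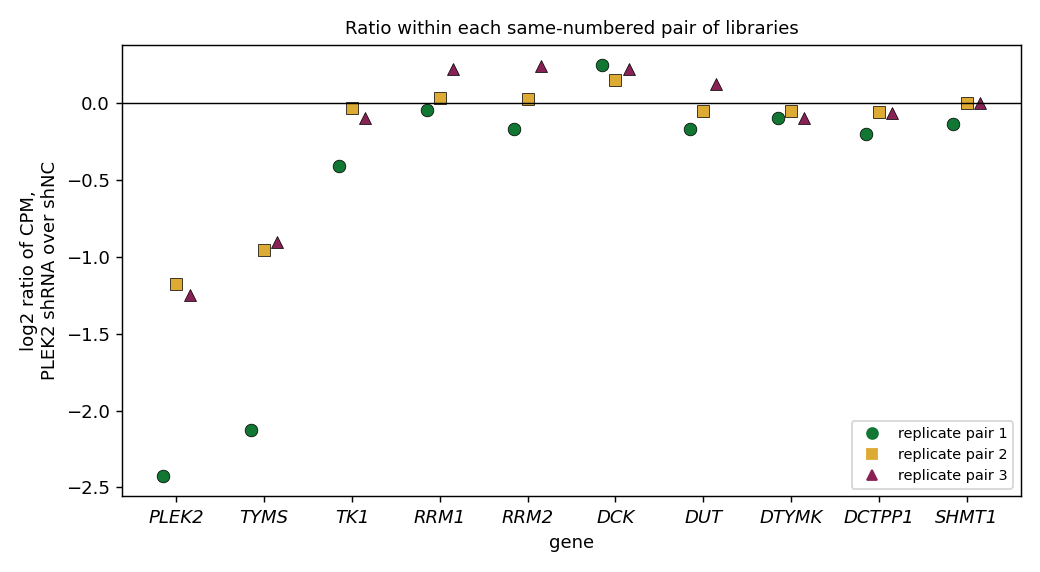
Log2 ratio of CPM, PLEK2 shRNA over shNC, for PLEK2 and the 9 genes in each same-numbered pair of libraries (circles pair 1, squares pair 2, triangles pair 3). PLEK2 and TYMS are below 0 in all pairs and lowest in pair 1 (-2.42 and -2.12), and DCK is above 0 in all pairs.

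The libraries numbered 1 stood apart from those numbered 2 and 3 in both groups, and the members showed it. RRM2 was higher in replicate 1 than in the mean of replicates 2 and 3 by 0.54 on the log2 scale in shNC and by 0.24 with PLEK2 shRNA. RRM1 (0.35 and 0.17), DUT (0.38 and 0.18), DCK (0.24 and 0.30) and SHMT1 (0.20 and 0.06) were also higher in replicate 1 of both groups. DTYMK and DCTPP1 were lower in replicate 1 of both groups. TYMS differed from all of these, with replicate 1 at 0.44 above the others in shNC and at -0.75 relative to them with PLEK2 shRNA. TK1 had the same signs (0.15 and -0.19), as did PLEK2, the targeted gene (0.15 and -1.07). What set replicate 1 apart is not given in the labels, and its part in the results was not tested beyond the fits without it.

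The rest of the pathway was represented by 25 further genes of dNTP and thymidylate metabolism, all of which were tested. At an adjusted p under 0.05, 0 of the 25 were called in either edgeR fit. At an unadjusted p under 0.05, 1 of the 25 passed without the block and 4 passed with it (3 lower and 1 higher), near the shares of all genes tested (3.09% and 18.3%). Their median blocked log2 fold change was -0.028, and they ranged from -0.27 to 0.30. RRM2B, the p53-inducible small subunit of ribonucleotide reductase, had the smallest p of the list. It was at 58.4, 36.5 and 33.0 CPM in shNC and at 79.3, 40.9 and 39.4 CPM with PLEK2 shRNA, with replicate 1 highest in each group and the groups overlapping. Its log2 ratio was 0.44, 0.17 and 0.26 in pairs 1 to 3, and its blocked log2 fold change was 0.30 (95% interval 0.15 to 0.45), at an edgeR adjusted p of 0.0674. The FPKM ratio of RRM2 to RRM2B was 19.1 ± 1.5 in shNC and 16.5 ± 4.5 with PLEK2 shRNA (SD, n = 3), from 11.4 in replicate 1 to 19.7 in replicate 3 of the latter.

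The next 4 by p were NME3 and NME4, nucleoside diphosphate kinases, CDA, the cytidine deaminase, and TYMP, the thymidine phosphorylase. NME3 had a blocked log2 fold change of -0.27 (adjusted p 0.151, edgeR), CDA of -0.23 (adjusted p 0.185), NME4 of -0.19 (adjusted p 0.203) and TYMP of -0.19 (adjusted p 0.286), all with Benjamini-Hochberg adjustment. NME3, NME4 and CDA had lower levels in all 3 pairs, while TYMP was at 0.02, -0.30 and -0.26. Of the 25 genes, 9 were lower in all 3 pairs, against 21.1% of genes tested, and 4 were higher, against 19.8%. The kinases NME1 and NME2 are closely similar neighbours, and how reads common to both were counted was not checked, so their values are uncertain.

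**Figure D4:**
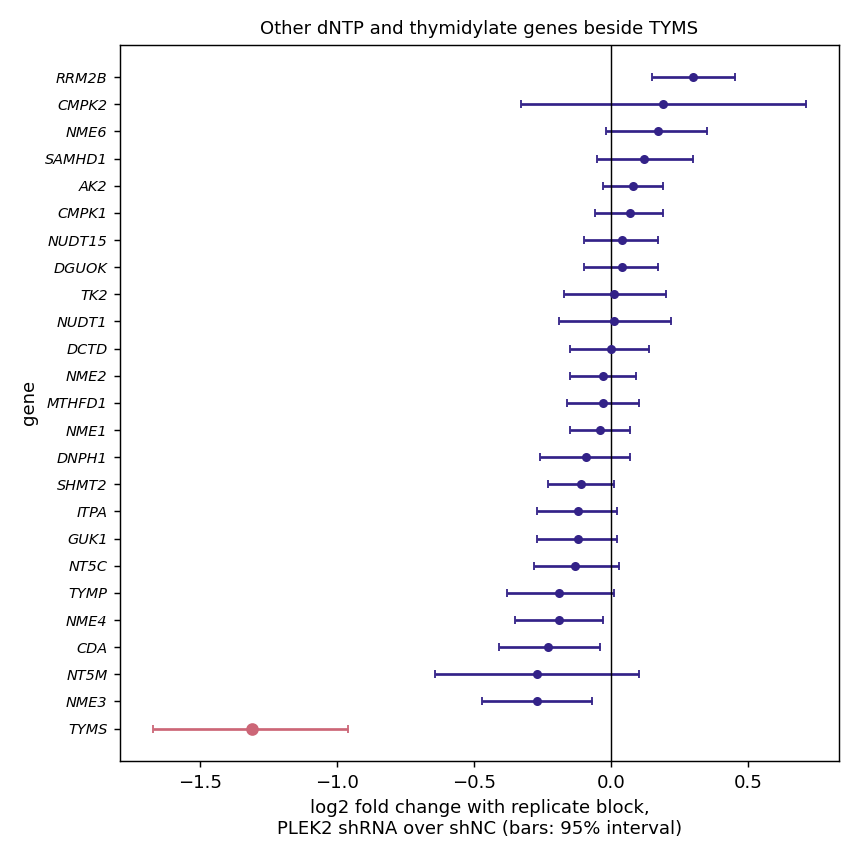
Blocked log2 fold change with 95% interval for TYMS (red) and 24 other dNTP and thymidylate genes (indigo), ordered by value. The 24 genes, with 1 of the list of 25 not reported here, lie between -0.27 and 0.30, and TYMS at -1.31 lies outside that range.

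S phase genes were read beside the members because several members share their timing of transcription. Of 30 S phase genes, 1 was called lower with the block at an adjusted p under 0.05, where 0.725% of genes tested were, and 0 were called higher (0.123%) or without the block (0%). Over the 30 genes the median blocked log2 fold change was -0.059. CDT1, which loads the replicative helicase, was the gene called, with a blocked log2 fold change of -0.26 (95% interval -0.37 to -0.14) at an edgeR adjusted p of 0.0471. At an unadjusted p under 0.05 with the block, 8 of the 30 were lower, against 10.4% of all genes tested, and 2 were higher, against 7.89%. Pair by pair, the median log2 ratio over the 30 genes was -0.171, -0.012 and 0.04, beside -0.151, -0.016 and 0.062 for the members other than TYMS. Among the 30 genes the lowest blocked log2 fold change was -0.27, against -1.31 for TYMS.

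The genes whose log2 CPM followed TYMS most closely were sought over the 6 libraries among 10160 genes tested whose log2 CPM averaged more than 3. The 6 points form the compared groups and share their libraries and depth, so a gene that differs between the groups correlates through that difference. PFKP, the platelet-type phosphofructokinase, had the highest Pearson r (0.993), followed by TTLL12 (0.989), YWHAH (0.988) and PLEK2 (0.984). PFKP was at 499.8, 485.3 and 476.8 CPM in shNC and at 384.9, 428.1 and 417.5 CPM with PLEK2 shRNA, a far smaller proportional difference than that of TYMS. Of the members, TK1 was nearest at rank 126 (r = 0.919), while RRM2 was at -0.025, RRM1 at -0.198 and DCK at -0.673.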

How the data were processed

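RNA from 6 HCT116 libraries, 3 shNC and 3 PLEK2 shRNA, was analysed from 1 table of 17047 genes. The authors deposited estimated counts per gene, not normalized, and FPKM values. The submitters' processing notes list HISAT2 2.0.4, Bowtie2 2.2.5, RSEM 1.2.12 and DESeq2 1.4.5 and give a mouse build, GRCm38.p6, although the gene identifiers are human, so the build behind the counts is uncertain. Coordinates come from GENCODE 44 on GRCh38. Group means in the table were not used, and 0 per-sample columns were left unassigned.

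The estimated counts were made whole by rounding, scaled by TMM, filtered with filterByExpr and tested with the quasi-likelihood test of edgeR 4.0.16 (R 4.3.3). Benjamini-Hochberg adjustment ran over 12959 genes. The main fit held no replicate term, as the study's methods name an unpaired test. That test is a t-test given for the study's statistics in general, not for the RNA sequencing. Intervals are 95%. Same-numbered libraries correlated at 0.554 to 0.736 in their deviations from the group means over 10161 genes, and differently numbered ones at -0.629 to 0.358. Deviations from the mean of 3 libraries cancel out, so negative values arise in part from replicate 1 standing apart. Replicates 2 and 3 were less clearly told apart, at 0.558 and 0.554 with the same number and 0.358 and 0.355 with different numbers. The numbers, shared in the labels, were read as pairing the libraries, and a blocked fit was added. Libraries of a group differed by more than sampling noise (chi-square per gene 3.06 to 20.3). Totals of 14377532 to 15602732 give members a counting error of a few percent, and intervals of counting error alone leave out library-to-library spread. The alternatives were other scalings and filters, DESeq2 1.42.0, limma 3.58.1 on log2(FPKM + 1) or log2(FPKM + 0.1), left-out libraries, library totals with the block, and the summed counts of TYMS and ENOSF1. The fits were tested on simulated data.

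The members and gene lists were chosen with earlier results of these data known. Genes named were all members, PLEK2, ENOSF1, list genes with an adjusted p under 0.05, the 5 other dNTP genes with the smallest blocked p, and the 5 genes most correlated with TYMS. Some genes that these rules name are not reported here. TYMSOS, SMCR8, NME1, NME2 and the markers KRT8, KRT18, VIL1, CDH17 and COL1A1 were named after their values were seen.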

Additional observations from a re-analysis of the deposited data

How the results depend on the processing

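The log2 fold change of TYMS, or of the TYMS and ENOSF1 sum, stayed negative in all 22 alternatives, from -1.52 to -0.85. It passed an adjusted p of 0.05 in 7 of them. It passed with the replicate block (-1.31), with DESeq2's Wald test (-1.30, adjusted p 7.04e-07), with library totals and the block (-1.28), with the TYMS and ENOSF1 sum and the block (-0.85), and with the block when a replicate number was left out of both groups (-0.92, -1.49 and -1.52 without replicate 1, 2 and 3). In DESeq2 with the block its adjusted p was 0.0529. The value of -0.85 belongs to the TYMS and ENOSF1 sum, and the smallest fall of TYMS alone was -0.92. Leaving out single libraries gave values from -1.43 to -1.09. The number of members called was 1 with the block, with DESeq2, with library totals and the block, and in each blocked fit without a replicate number, and TYMS was that member, while it was 0 in each fit without a single library. The replicate block changed no other member's call.

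Genes called at an adjusted p under 0.05 numbered 110 with the block, 12 with DESeq2, 57 with DESeq2 and the block, 192 with library totals and the block, 528, 18 and 297 with the block and without replicate 1, 2 and 3 of both groups, and 0 to 1 with single libraries left out. At an unadjusted p under 0.05 and 1.5-fold, 60 genes were called. This count was 98 with the block, 159 without the filter beyond 1 count, 30 with DESeq2, 31 with DESeq2 and the block, 16 with limma-trend on log2(FPKM + 1), 15 with limma-trend and no filter, 99 with library totals and the block, 151, 137 and 150 with the block and without replicate 1, 2 and 3, and 64 to 159 with single libraries left out.

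For the other 8 members, 160 alternative values gave 0 calls. Signs reversed in 13 of them. RRM1 was at -0.02 without shNC replicate 3 (range -0.02 to 0.20 with single libraries left out). RRM2 was at -0.03, -0.11 and -0.07 without shNC replicate 2, shNC replicate 3 and PLEK2 shRNA replicate 1 (range -0.11 to 0.23), and at -0.06 with the block without replicate 3. DUT was at 0 in the 3 limma fits, at 0.11 and 0.03 without shNC replicate 1 and PLEK2 shRNA replicate 2 (range -0.10 to 0.11), and at 0.04 with the block without replicate 1. SHMT1 was at 0.04 without shNC replicate 1 (range -0.08 to 0.04) and at 0.01 with the block without replicate 1. The cause was not tested.

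The difference of TYMS from the other members ranged from -1.48 to -1.08 with single libraries left out, and was -1.32 in FPKM and -1.31 against their mean. Taken within pairs, an alternative chosen after seeing the data, it was -1.34, with an exact p of 0.25, the smallest that 3 pairs allow.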
